A study of Homo sapiens with 12 samples.

Results

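The genes described here are the small nucleolar RNAs (snoRNAs) and small Cajal body RNAs (scaRNAs), taken as every gene of the deposited tables whose symbol begins with SNORD, SNORA or SCARNA followed by a digit. They made up 245 of 16271 genes, with 142 SNORD, 84 SNORA and 19 SCARNA genes. Total RNA had been sequenced from HaCaT cells, an immortalised human keratinocyte line, in 12 libraries. VDR encodes the nuclear receptor for 1,25(OH)2D3, vitamin D in its active form. Wild type and VDR knockout cells were each studied without treatment and after 8 h with 1,25(OH)2D3, which makes 4 groups of 3 libraries. The sources used here do not give the dose, the vehicle, the library kit or how many knockout clones there were. The labels speak of replicates cultured on a plate, and p-values measure the spread between such replicates of 1 line.

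SnoRNAs are short nuclear RNAs that guide the chemical modification of other RNAs by base pairing. Box C/D snoRNAs (SNORD) carry a C box and a D box and guide 2'-O-methylation, chiefly of ribosomal RNA. H/ACA snoRNAs (SNORA) end in an ACA box and guide the conversion of uridine to pseudouridine. ScaRNAs have either or both designs and act in Cajal bodies, mostly on the spliceosomal RNAs. In human cells most of them are cut from introns of host genes, many of which encode ribosomal or nucleolar proteins or are long noncoding RNAs named SNHG (snoRNA host gene). A few, among them U3, U8 and U13, are transcribed from promoters of their own.

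The sequences of GENCODE v29 show the 2 designs in some of the members described here. Capitals mark TGATGA within the first 25 bases (C box), CTGA within the last 20 (D box) and, in an H/ACA RNA, ACA ending 3 bases before the 3′ end. The RNAs cut from SNHG1 and RPL13A are shown because they fell in treated wild type cells or rose in treated knockout cells, and SNORD20 and SNORD86 because they were low in knockout cells.
SNORD30: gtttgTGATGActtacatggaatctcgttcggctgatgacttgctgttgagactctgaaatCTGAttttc
SNORD22: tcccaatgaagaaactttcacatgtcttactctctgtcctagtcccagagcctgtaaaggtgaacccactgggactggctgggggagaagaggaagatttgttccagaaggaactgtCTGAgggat
SNORD33: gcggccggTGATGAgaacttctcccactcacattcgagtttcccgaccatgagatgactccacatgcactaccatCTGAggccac
SNORD34: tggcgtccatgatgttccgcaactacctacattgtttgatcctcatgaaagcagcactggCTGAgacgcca
SNORD35A: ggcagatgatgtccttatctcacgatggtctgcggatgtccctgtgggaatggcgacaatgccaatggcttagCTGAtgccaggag
SNORD11: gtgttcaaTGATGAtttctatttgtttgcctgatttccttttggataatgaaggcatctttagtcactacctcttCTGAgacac
SNORD20: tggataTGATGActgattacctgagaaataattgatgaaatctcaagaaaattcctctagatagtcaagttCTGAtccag
SNORD86: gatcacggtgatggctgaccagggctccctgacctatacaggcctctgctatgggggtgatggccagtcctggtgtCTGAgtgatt
The scaRNAs below rose in treated wild type cells. SCARNA21 has the ACA box, and neither search found a box in SCARNA17. A further scaRNA that rose, SCARNA7, is 330 bases long and is not printed, and the search found TGATGA from its base 7 and CTGA from its base 322.
SCARNA17: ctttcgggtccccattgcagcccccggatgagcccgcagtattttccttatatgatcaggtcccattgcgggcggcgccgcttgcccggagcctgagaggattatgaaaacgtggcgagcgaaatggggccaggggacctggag
SCARNA21: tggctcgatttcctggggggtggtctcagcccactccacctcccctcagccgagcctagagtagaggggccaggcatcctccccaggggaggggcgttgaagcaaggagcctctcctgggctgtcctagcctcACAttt
On GRCh38, SNORD30 lies at chr11:62853663-62853732 (minus strand) and SNORD22 at chr11:62852910-62853035 (minus strand), both within transcripts of SNHG1. The 4 RPL13A members lie in 1 stretch of chromosome 19, from SNORD32A at chr19:49489965-49490048 through SNORD33 at chr19:49490615-49490699 and SNORD34 at chr19:49490904-49490974 to SNORD35A at chr19:49491175-49491260, all on the plus strand and all overlapping an exon of at least 1 RPL13A transcript. SNORD20, at chr2:231456444-231456523 (minus strand), is in an intron of NCL, and SNORD11, at chr2:202293051-202293134 (plus strand), is in an intron of NOP58. SCARNA21, at chr17:7906122-7906260 (plus strand), is in an intron of CHD3, and SCARNA7, at chr3:160514907-160515236 (minus strand), is in an intron of KPNA4. The search used the RNA strand alone. Of 117 SNORD members with a single GENCODE transcript, 63.2% had the C box string and 97.4% the D box string, against 71% and 96.3% of all 272 such SNORD genes in GENCODE. The ACA string stood at its place in 75% of 72 SNORA members, against 76.6% of 145 SNORA genes in GENCODE, and in 2.56% of the SNORD members.

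What a count on such a gene measures differed sharply between members. Of the 245 genes, 227 had a host gene in the same table. For 36 of them the counts lay within 10% of the host's counts in every library (largest deviation 7.44%). Their values are in effect those of the host. They include SNORD43 in RPL3 (a ribosomal protein gene), SNORD15A in RPS3, SNORD12C in ZFAS1, SNORD25, SNORD26 and SNORD27 in SNHG1, and SNORA57, whose counts equal those of METTL12. The other 191 were counted apart from their host. Their counts were a median of 0.448% of the host's, and 180 of them lay below 5%. For each, the largest departure from the host in any library was at least 217%. By this measure no gene fell between the 2 kinds. In single libraries some came closer, as SNORD118 with 100 per 100 counts of TMEM107, its host by position, in untreated knockout replicate 1. The total over 12 libraries had a median of 32335 counts for genes that followed their host and 130 for genes counted apart. Whether reads counted apart came from the finished small RNA or from unspliced host RNA cannot be told apart in these counts.

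**Figure D1:**
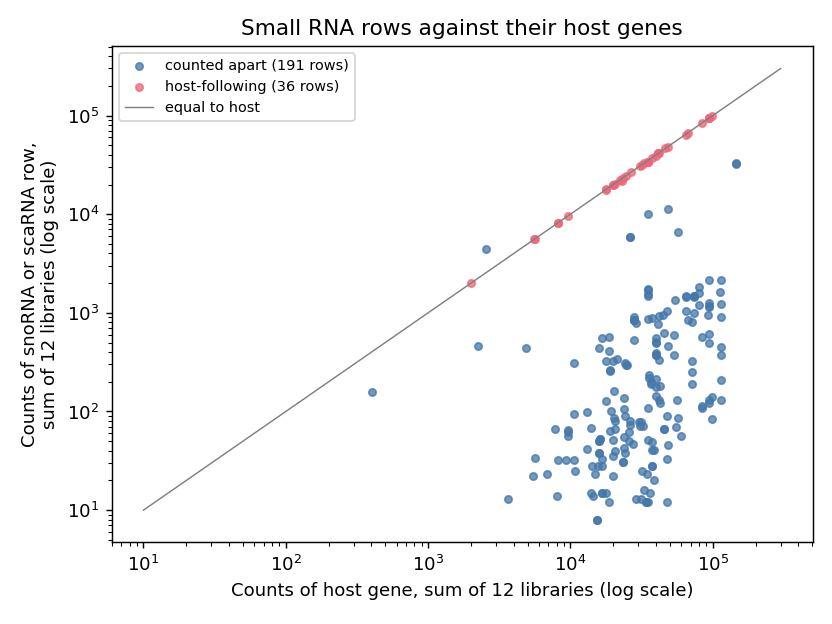
Counts summed over 12 libraries for each snoRNA or scaRNA gene (y) against its host gene (x), both on log scales. The 36 genes that follow their host sit on the line of equality and the 191 counted apart lie off it, most of them far below.

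Members also had counts equal or close to each other, and whether they share reads was not tested. Of the 245 genes, 56 matched another gene's counts exactly in all 12 libraries, 43 of them equal to another member and 17 to a gene outside the set, which left 222 distinct profiles. Within 1 host, 31 of 128 pairs of members with at least 100 counts each had totals within 10% of each other, in 13 of the 23 hosts that carried 2 or more members counted apart. SNORD33 and SNORD34 were equal, as were SNORD50A and SNORD50B in SNHG5, and so these are single measurements. The filter on low counts kept 157 members (102 SNORD, 44 SNORA and 11 SCARNA) and set aside 88. Of the 157, 109 were counted apart and 36 followed their host.

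Total counts ranged from 11485031 to 15992792 per library. VDR transcripts were still counted in the knockout, at 73.1 to 81.1 CPM (counts per 1000000 counts, TMM-scaled) in untreated knockout libraries against 99.7 to 107 CPM in untreated wild type ones. CYP24A1, the gene of the enzyme that inactivates the hormone and a classic VDR target, rose from 46.3 to 51.3 CPM in untreated to 1610 to 1720 CPM in treated wild type libraries and stood at 12 to 12.5 CPM in treated knockout ones. All 8 keratinocyte markers examined were counted, and all 8 were lower in untreated knockout than in untreated wild type cells.

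In wild type cells, the scaRNAs that changed on treatment rose while the snoRNAs that changed mostly fell. A gene was called when its adjusted p in edgeR's quasi-likelihood test was below 0.05. Of the 157 tested members, 9 rose and 31 fell, against 11.5% of all 14676 genes called higher and 13% called lower. The 25.5% of members called is close to the 24.5% of all genes, and the difference lies in direction. The median log2 fold change was -0.18 over the members and 0 over all genes. Among genes counted apart, 2 rose and 24 fell of 109, and among genes that followed their host 5 rose and 6 fell of 36. The number called lower ranged from 16 to 32 as single libraries were left out, being 20 without treated replicate 1 or 2 and 16 without treated replicate 3.

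Of the 11 SCARNA genes tested, 7 rose and 0 fell (0 at an unadjusted p below 0.05, 0 with DESeq2), and counted once per distinct profile 4 of 8 rose. SCARNA17, a guide RNA for the U4 spliceosomal RNA, lies on chromosome 18 in a noncoding host transcript that the table also names SCARNA17 (SNHG22 in GENCODE v29), and SCARNA18 in the same host carries the same counts. These rows stood at 458, 428 and 362 CPM in untreated wild type libraries and at 901, 973 and 935 CPM in treated ones. The treated libraries were all above the untreated, by 1.17 ± 0.11 on the log2 scale (SE, n = 3 per group, adjusted p = 7.28e-06). SCARNA2, a box C/D guide for the U2 spliceosomal RNA, went from 300, 341 and 225 CPM to 678, 558 and 717 CPM, a log2 fold change of 1.17 ± 0.14 (adjusted p = 7.69e-05). Both of these rows count the whole annotated transcript and cannot be read as the processed scaRNA alone.

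SCARNA21, which was counted apart from CHD3, gives the larger fold change at a far lower level. It had 2.24, 3.75 and 3.30 CPM in untreated and 9.54, 5.31 and 9.16 CPM in treated wild type libraries, a log2 fold change of 1.37 ± 0.24 (adjusted p = 0.000823). Its host CHD3, a chromatin remodeller, rose by 0.34 (adjusted p = 0.00912). SCARNA7, a box C/D scaRNA, had 5.35, 5.48 and 6.17 CPM untreated and 10.3, 10.2 and 9.61 CPM treated, a rise of 0.83 ± 0.21 (adjusted p = 0.00927). Its host KPNA4, an importin, moved the other way, by -0.38 (adjusted p = 0.00294). Per 100 host counts, SCARNA7 went from 2.08 ± 0.0525 to 4.81 ± 0.355 (SD, n = 3). The groups did not overlap for any of the 4 profiles. The other tested scaRNAs did not pass. SCARNA13 in SNHG10 had a log2 fold change of 0.21 (adjusted p = 0.135), SCARNA16 of 0.01 (adjusted p = 0.916), SCARNA9 of 0.29 (adjusted p = 0.628) and SCARNA5 of 1.08 ± 0.66 (adjusted p = 0.254).

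**Figure D2:**
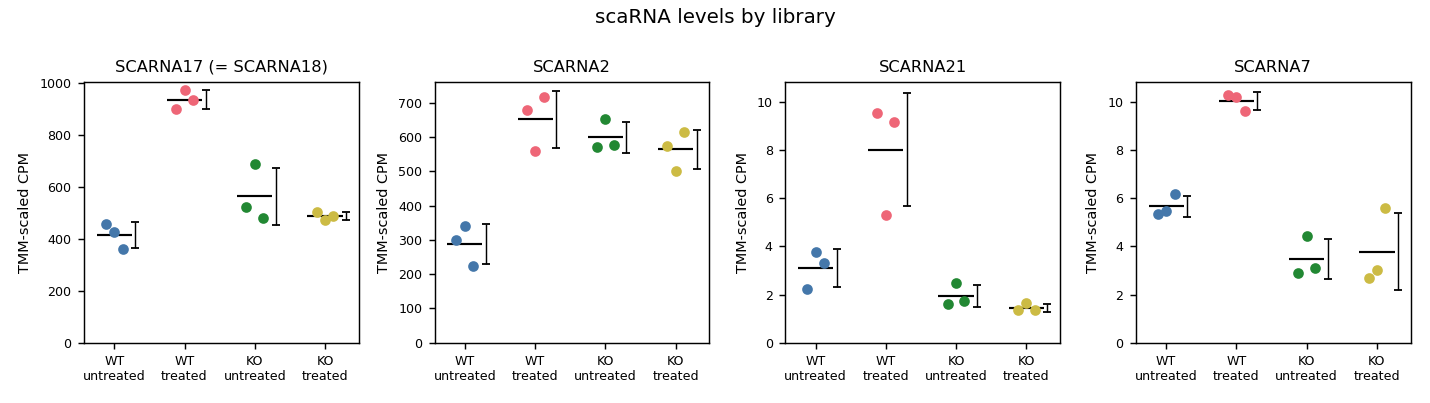
TMM-scaled CPM of 4 scaRNA profiles by library (points), with group means (bars) and SD (error bars, n = 3). Treated wild type libraries lie above untreated ones in each panel, while knockout groups overlap on treatment.

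Some other short structured RNAs rose as well and others did not. TERC, the RNA of telomerase, which has an H/ACA domain, rose from 193 to 218 CPM to 315 to 397 CPM, a log2 fold change of 0.87 (adjusted p = 0.000275), with 2 genes of equal counts. RMRP, the RNA of the RNase MRP enzyme, went from 61.4 to 112 CPM to 191 to 222 CPM, a log2 fold change of 1.2 (adjusted p = 0.0124). RPPH1, the RNA of RNase P, had 0.10 (adjusted p = 0.699), RN7SK did not pass (adjusted p = 0.101), and RN7SL1, an RNA of the signal recognition particle, fell by 0.65 (adjusted p = 0.0499). A wider set of 475 other short RNA genes was chosen by symbol. In it, 272 symbols began with MIR and a digit, and 25 genes were named snoU13. Of the 265 tested, 31 rose and 24 fell, with a median of -0.09, against 11.5% and 13% of all genes. SNORA78, whose counts equal those of its host SNHG9, rose by 0.60 ± 0.17 (adjusted p = 0.0209), and SNORD84 in DDX39B rose by 0.27 (adjusted p = 0.0484). The first call was lost without untreated replicate 1 or 3 or treated replicate 1 or 2 (highest adjusted p = 0.0775). The second was lost in 10 of the alternatives (highest adjusted p = 0.129).

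Among the snoRNAs that fell, the 4 names SNORD22, SNORD29, SNORD30 and SNORD31, all in SNHG1, gave one pattern. SNORD30 had 9.40, 12.3 and 11.4 CPM in untreated and 7.02, 5.85 and 6.01 CPM in treated wild type libraries. The groups did not overlap, and the log2 fold change was -0.81 ± 0.16 (adjusted p = 0.00186). SNORD29 fell by 0.80 ± 0.16 (adjusted p = 0.00184), SNORD31 by 0.71 and the larger of the 2 SNORD22 rows by 0.71. The 5 rows have nearly parallel counts, so they are not independent observations. SNHG1 itself, a long noncoding RNA whose function lies largely in carrying snoRNAs, had a log2 fold change of -0.18 (adjusted p = 0.13). SNORD28, in the same host and also counted apart, had -0.09. Per 100 SNHG1 counts, SNORD30 went from 6.36 ± 0.844 to 4.10 ± 0.397 (SD, n = 3).

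SNORD118 is U8, a box C/D RNA needed for the maturation of 5.8S and 28S ribosomal RNA rather than for methylation. It overlaps an exon of TMEM107 at chr17:8173454-8173587 (minus strand). It had 24.6, 18.9 and 21.7 CPM in untreated and 9.38, 11.9 and 6.76 CPM in treated wild type libraries, with no overlap, and fell by 1.22 ± 0.24 on the log2 scale (adjusted p = 0.00411). TMEM107 rose by 0.35 (adjusted p = 0.0349). SNORA17 and SNORA43, both in SNHG7, fell by 1.5 ± 0.38 (adjusted p = 0.00962) and 1.47 ± 0.39 (adjusted p = 0.013). Both are near the limit of these libraries, at 0.862 to 1.74 CPM untreated and 0.451 to 0.552 CPM treated, and their counts are nearly the same. The SNORA43 call was lost without treated replicate 3 (adjusted p = 0.0549). SNHG7 had a log2 fold change of 0.17 (adjusted p = 0.224).

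For other members the host fell as well. SNORD50A and SNORD50B, with 1 shared profile, went from 41.9, 38.7 and 43.0 CPM to 28.1, 28.7 and 27.9 CPM, a fall of 0.55 ± 0.08 (adjusted p = 0.000241), and their host SNHG5 fell by 0.50 (adjusted p = 0.00042). SNORA73A and SNORA73B are the U17 RNAs, H/ACA members that act in the cleavage of the 18S precursor. They fell by 0.34 and 0.39, and their host SNHG3 by 0.46 (adjusted p = 0.00898). SNORD12C, which follows ZFAS1, fell from 605 to 625 CPM to 453 to 498 CPM (log2 fold change -0.35, adjusted p = 0.00274). In GAS5, SNORD77, SNORD78 and SNORD79 fell by 0.51 to 0.68 while GAS5 had 0.05. In TAF1D, SNORA1, SNORA8 and SNORD6 fell by 0.57 to 0.84 while TAF1D had -0.07. Other members of both hosts differed in how far they moved. Per 100 host counts, SNORA40 went from 2.15 to 2.11 and SNORA32 from 0.211 to 0.112 in treated wild type cells. In GAS5, SNORD81 went from 0.531 to 0.513 and SNORD47 from 1.12 to 0.844. The GAS5 and TAF1D calls given first were fragile. SNORD78 was lost in 15 and SNORD79 in 14 of the 20 alternatives, among them DESeq2, no filter, the compared groups alone and the replicate block, with highest adjusted p of 0.136 and 0.134. SNORD6 was lost in 7, SNORD77 in 5 and SNORA1 and SNORA8 in 4 each, in the compared groups alone and without single libraries. Counting equal rows once, 25 members counted apart were called in wild type cells. The host was called in the same direction for 8 of them, in the opposite direction for 2 (SNORD118 and SCARNA7) and not called for 15. For SNORD118, or U8, which has a promoter of its own, TMEM107 counts as host by position alone. All members counted apart were also summed, with equal rows counted once. The sum was 1050 to 1090 CPM in untreated and 842 to 932 CPM in treated wild type libraries, with no overlap. SNORA73A and SNORA73B, whose counts are nearly the same, averaged 203 and 207 CPM over all libraries and so weigh heavily in it.

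In knockout cells few members passed and the calls were fragile. Of 157, 7 rose and 2 fell, against 0.913% of all genes called higher and 1.64% lower (2.55% in all), and the median was 0.16. All 7 that rose were SNORD genes counted apart. In SNORA, 0 rose and 0 fell by edgeR's quasi-likelihood test (9 and 2 at an unadjusted p below 0.05, 0 and 0 with DESeq2), and in SCARNA likewise 0 and 0 (0 and 1 unadjusted, 0 and 0 with DESeq2). The number called higher ranged from 0 to 18 as single libraries were left out. It was 0 without untreated knockout replicate 1 or 3 or treated knockout replicate 2 or 3, and 1 without any treated wild type replicate. It was 4 without untreated wild type replicate 1 or treated knockout replicate 1, and 18 without untreated wild type replicate 3. That last library is in neither compared group and enters through the shared filter, scaling and estimate of spread. The number called lower ranged from 0 to 10. It was 0 without untreated knockout replicate 1 or 3 or any treated knockout replicate, 1 without untreated knockout replicate 2 or any treated wild type replicate, and 10 without untreated wild type replicate 3.

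The rises were in 3 hosts. In RPL13A, SNORD32A had 4.83, 8.63 and 4.26 CPM untreated and 9.64, 15.4 and 10.3 CPM treated in knockout cells, a log2 fold change of 1.01 ± 0.24 (adjusted p = 0.0448). Replicate 2 was the highest library in both groups, and the groups did not overlap. SNORD35A had 1.04 ± 0.23 (adjusted p = 0.0371) and the profile of SNORD33 and SNORD34 had 0.98 ± 0.24 (adjusted p = 0.046), while RPL13A had -0.03 (adjusted p = 0.883). The 4 genes stand within 1 stretch of the host. Their totals were 1440, 1476 and 1476 counts, and a lower 986 for SNORD35A. The counts ran nearly parallel over the libraries (SD of the log2 ratio to SNORD35A 0.085 to 0.093), so they are close to 1 measurement. In SNHG1, SNORD30 rose by 0.62 ± 0.15 (adjusted p = 0.0416) and SNORD29 by 0.60 (adjusted p = 0.0436). SNORD11 in NOP58 had 0.451, 0.450 and 0.480 CPM untreated and 1.05, 1.48 and 1.58 CPM treated, a log2 fold change of 1.55 ± 0.34 (adjusted p = 0.028) on 145 counts in all 12 libraries. The falls were in SNORD84 (-0.45, adjusted p = 0.0249) and SNORD59A in ATP5B (-0.45, adjusted p = 0.0329), both of which follow their host. Of the 9 calls, 0 held in all alternatives.

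**Figure D3:**
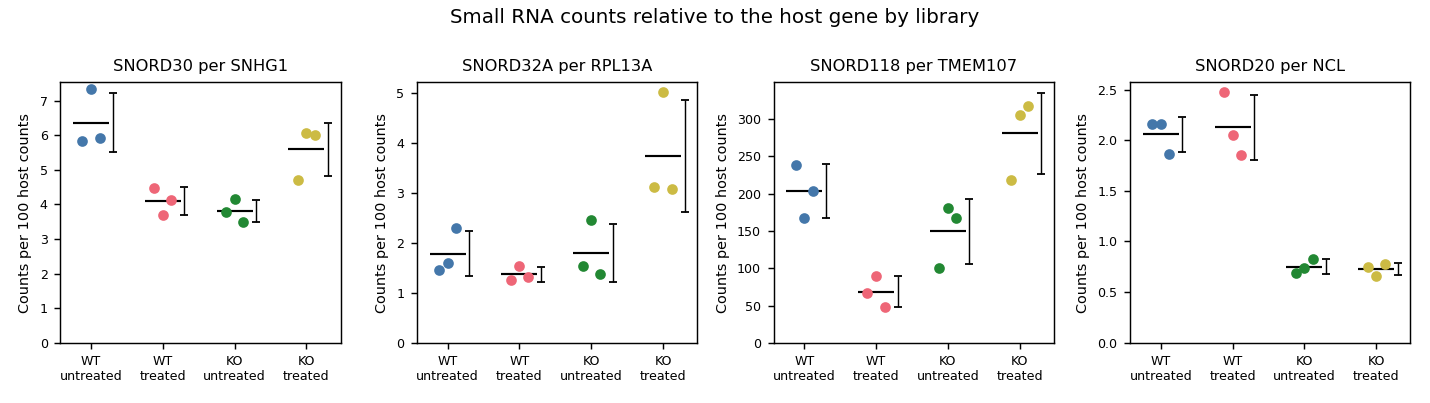
Counts of 4 snoRNAs per 100 counts of the host gene by library (points), with group means (bars) and SD (error bars, n = 3). For SNORD118 the host is the overlapping gene TMEM107, taken by position alone. SNORD30 and SNORD118 are lower in treated than untreated wild type libraries and higher in treated than untreated knockout libraries, and SNORD20 is low in all knockout libraries.

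The difference between the 2 treatment responses was tested directly, as the response in knockout minus that in wild type cells. Of 157 members, 41 had a positive and 9 a negative difference, against 13.8% and 12.5% of all genes (26.3% in all), with a median of 0.31 against -0.01 over all genes. Among those counted apart, 34 were positive and 1 negative, and among the 11 SCARNA genes 0 were positive (0 at an unadjusted p below 0.05, 0 with DESeq2) and 7 negative. SNORD30 differed by 1.43 ± 0.22 (adjusted p = 0.000349), SNORD29 by 1.40 (adjusted p = 0.000353), SNORD22 and SNORD31 by 1.24 each, SNORD118 by 1.89 ± 0.32 (adjusted p = 0.00179) and SNORA17 by 2.74 ± 0.54 (adjusted p = 0.00179). SNORD32A differed by 1.46 (adjusted p = 0.00607). The difference was -1.38 ± 0.16 for SCARNA17 (adjusted p = 6.38e-05), -1.26 ± 0.19 for SCARNA2 (adjusted p = 0.000526), -1.78 ± 0.38 for SCARNA21 (adjusted p = 0.00315) and -0.72 for SNORD84 (adjusted p = 0.00125). For SCARNA7 it was -0.69 ± 0.32 and did not pass (adjusted p = 0.115). By sign alone, 68 of the 109 tested members counted apart were lower in treated than untreated wild type cells and higher in treated than untreated knockout cells, 62.4% of them, most without passing either test. The same pair of signs was found for 31.6% of all 14676 tested genes.

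**Figure D4:**
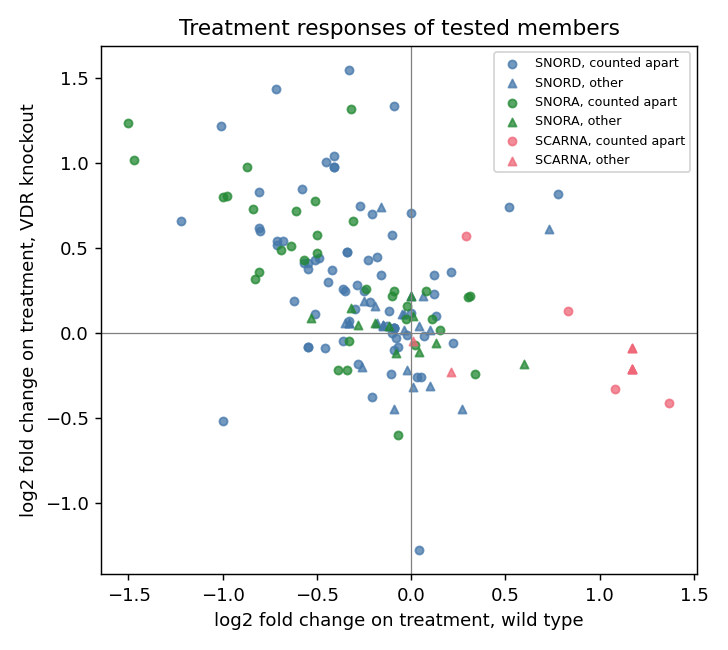
Log2 fold change on treatment in knockout cells (y) against wild type cells (x) for 151 tested members, coloured by class, with circles for genes counted apart and triangles for the rest. Points gather at upper left, whereas all 11 SCARNA genes lie right of 0, and 6 U3 genes are not drawn.

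More members differed between untreated knockout and wild type cells than on treatment, though a smaller share of them (57.3%) than of all genes (69.7%). The number of knockout clones is not given, and the p-values by genotype do not measure the spread between clones. In untreated cells, 25 members were higher and 65 lower in the knockout, against 35.5% and 34.2% of all genes, with a median of -0.30 over the members and 0.01 over all genes. Without TMM scaling the split was 34 higher and 50 lower. Among genes counted apart, 6 were higher and 53 lower of 109, and among those that followed their host 16 were higher and 11 lower of 36. The summed level of all members counted apart was not lower. It was 1050 to 1090 CPM in untreated wild type and 1070 to 1180 CPM in untreated knockout libraries. Its SNORD part was 564 to 581 against 463 to 535 CPM, and its SNORA part 475 to 514 against 599 to 653 CPM. In treated cells 56 members were higher and 39 lower, against 38.4% and 37.4% of all genes (75.9% in all). Of the members, 33 were called lower and 16 called higher in both genotype comparisons, and 7 were called lower untreated and higher treated. The same overlaps were not counted over all genes, so whether these numbers are unusual was not tested. The 2 genotype comparisons share no libraries with each other, but each shares its groups with the treatment comparisons above.

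In untreated knockout cells 12 of 102 SNORD genes were higher and 41 lower, and 6 of 44 SNORA genes were higher and 22 lower. The SCARNA genes ran the other way by rows, with 7 of 11 higher and 2 lower (median 0.44), though counted once per distinct profile 4 of 8 were higher and 2 lower (median 0.07). SCARNA2 had 570, 651 and 577 CPM in untreated knockout libraries, all above those of the untreated wild type, a log2 difference of 1.05 ± 0.14. SCARNA17, SCARNA13 and SCARNA16 were higher by 0.44, 0.49 and 0.28, and SCARNA7 and SCARNA21, both counted apart, gave -0.71 and -0.68. The SCARNA21 call was lost in 6 of the alternatives (highest adjusted p = 0.139). The SCARNA rows were also summed, with equal rows counted once. Their level was 688 to 864 CPM in untreated wild type and 1160 to 1470 CPM in untreated knockout libraries. Counting equal rows once, 55 members counted apart were called by genotype in untreated cells. The host was called in the same direction for 45 of them, in the opposite direction for 2 and not called for 8. Among the lower snoRNAs, members of NCL and NOP56 are given in detail. NCL encodes nucleolin and carries SNORD20, SNORD82 and SNORA75 in its introns. SNORD20 had 13.8, 12.6 and 9.30 CPM in untreated wild type and 2.96, 2.85 and 3.60 CPM in untreated knockout libraries, a log2 difference of -1.91 ± 0.17 (adjusted p = 4.16e-08). The groups were far apart, and in treated cells the difference was -2.19 (adjusted p = 5.97e-09). SNORA75 gave -1.84 ± 0.16 (adjusted p = 2.59e-08) and SNORD82 -1.20 ± 0.18 (adjusted p = 1.29e-05). NCL itself was lower by less, at -0.46 (adjusted p = 0.000323), and SNORD20 went from 2.06 ± 0.173 to 0.751 ± 0.0725 per 100 NCL counts (SD, n = 3). NOP56, a core protein of the box C/D particle, carries SNORD86, SNORD56, SNORD57 and SNORD110. SNORD86 had 9.83, 8.96 and 7.35 CPM against 3.09, 3.75 and 4.02 CPM, a difference of -1.26 ± 0.15 (adjusted p = 1.31e-06), SNORD110 gave -1.39 and the shared profile of SNORD56 and SNORD57 -1.18, while NOP56 gave -0.49 (adjusted p = 5.54e-06).

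SNORD39, which lies in MIR31HG by the annotation, gave -2.09 ± 0.20 (adjusted p = 1.12e-07) against -0.64 for the host. SNORD105B gave -2.82 ± 0.39 (adjusted p = 6.39e-06) on only 182 counts in 12 libraries. SNORD15A, which follows RPS3, gave -0.88 (adjusted p = 1.21e-07). The higher members mostly followed their host. SNORA57 had 171, 189 and 160 CPM in untreated wild type and 379, 435 and 404 CPM in untreated knockout libraries, a difference of 1.23 ± 0.10 (adjusted p = 1.75e-08), with METTL12 at the same values. SNORD25, SNORD26 and SNORD27 gave 0.68 each and SNORD45C in RABGGTB 0.82 (adjusted p = 1.99e-06). SNORA73A, counted apart, gave 0.63 (adjusted p = 1.86e-06).

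In treated cells some of the members that had responded to the hormone in wild type cells also differed by genotype, and others did not pass. SNORD118 stood at 9.33 ± 2.55 CPM in treated wild type and 49.9 ± 7.07 CPM in treated knockout libraries (SD, n = 3), a difference of 2.42 ± 0.23 (adjusted p = 1.97e-06). In untreated cells its difference of 0.53 (adjusted p = 0.0475) was lost in 11 of the alternatives, with a highest adjusted p of 0.17. SCARNA21 was at 8.00 ± 2.34 CPM and 1.45 ± 0.168 CPM, a difference of -2.46 ± 0.26 (adjusted p = 2.25e-07). SCARNA17 gave -0.94 (adjusted p = 1.2e-06) and SCARNA7 -1.41 (adjusted p = 1.65e-05). SCARNA2, which had risen as much as SCARNA17 in wild type cells, gave -0.21 and did not pass (adjusted p = 0.174), with 502 to 615 CPM in treated knockout against 558 to 717 CPM in treated wild type libraries. SNORD95 in GNB2L1, which follows its host, gave -1.05 (adjusted p = 1.82e-07).

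The other independently transcribed or processing snoRNAs gave mixed results. SNORD13, or U13, which directs acetylation of 18S ribosomal RNA, had 27.9, 25.1 and 22.1 CPM in untreated and 17.7, 32.6 and 17.1 CPM in treated wild type libraries, and the test did not pass (log2 fold change -0.16 ± 0.31, adjusted p = 0.758). In treated cells it was higher in the knockout by 1.55 ± 0.30 (adjusted p = 0.00123). SNORD14C, SNORD14D and SNORD14E are U14 copies in HSPA8, the gene of a heat shock protein. They had log2 fold changes of -0.07 to -0.10 on treatment in wild type cells, and did not pass in any comparison.

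U3, the most studied box C/D RNA of 18S processing, could not be measured here with any precision. SNORD3C had 34.8, 64.6 and 13.7 CPM in untreated wild type libraries and 0.838, 453 and 218 CPM in untreated knockout ones. SNORD3B-1 had 0.129, 11.1 and 0.180 CPM in untreated and 307, 13.4 and 10.1 CPM in treated knockout libraries. The copies did not vary together, since knockout untreated replicate 1 was lowest for SNORD3C and, at 15.9 CPM, highest of its group for SNORD3A. These genes are near-identical copies, and each symbol has 2 genes of equal counts, so the assignment of reads among copies is uncertain. For SNORD3C and SNORD3B-1 the test passed in none of the 5 comparisons (SE 1.57 to 2.8), and SNORD3A passed in treated cells by genotype (3.24 ± 0.99, adjusted p = 0.0155), a call lost without treated wild type replicate 1 or in the compared groups alone (highest adjusted p = 0.0788).

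**Figure D5:**
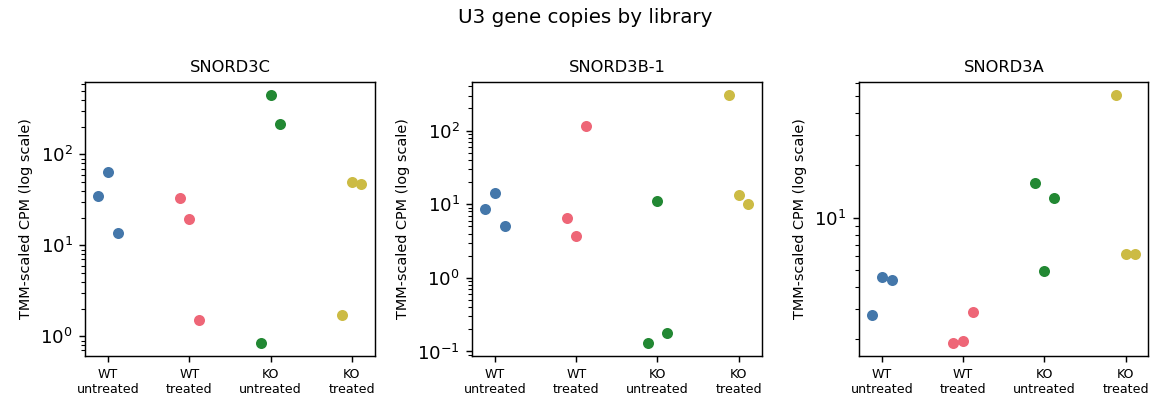
TMM-scaled CPM (log scale) of 3 U3 gene copies by library. Points of 1 group span up to several orders of magnitude, as for SNORD3C in untreated knockout cells from 0.838 to 453 CPM.

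The genes of the proteins that package, assemble and trim snoRNAs were described as 4 lists. Of 4 tested core box C/D proteins, 2 fell in treated wild type cells and 0 rose (0 at an unadjusted p below 0.05, 0 with DESeq2): NOP58, by 0.42 (adjusted p = 0.00303), and NHP2L1 (now SNU13), which binds the C/D motif, by 0.31 (adjusted p = 0.00733). Of 6 H/ACA proteins 0 rose and 0 fell (0 and 1 unadjusted, 0 and 0 with DESeq2). Together 2 of these 10 genes were called on treatment, against 24.5% of all genes. In untreated knockout cells 3 of 4 C/D and 4 of 6 H/ACA proteins were lower and 0 were higher by edgeR's quasi-likelihood test (0 at an unadjusted p below 0.05, 0 with DESeq2), so that 7 of 10 were called, a share close to the 69.7% of all genes. FBL, the methyltransferase fibrillarin, went from 98 to 51.5 CPM (log2 difference -0.93), DKC1, the pseudouridine synthase dyskerin, from 171 to 87.3 CPM (-0.97) and GAR1 from 54.2 to 27.8 CPM (-0.96). Among 17 assembly, transport and Cajal body factors 2 rose and 4 fell in treated wild type cells. WRAP53, which brings scaRNAs and telomerase RNA to Cajal bodies, rose by 0.27 (adjusted p = 0.0394), and RUVBL1 fell by 0.45 (adjusted p = 0.000648). Of 22 processing and decay factors 0 rose (1 unadjusted, 0 with DESeq2) and 6 fell, with PARN, a deadenylase that trims the ends of H/ACA RNAs and TERC, lower by 0.68 (adjusted p = 0.000178). Over all genes 11.5% rose and 13% fell in this comparison. The medians of the 4 lists were -0.15, -0.11, -0.16 and -0.08, against 0 over all genes. By genotype, the 17 assembly factors had 4 higher and 6 lower in untreated cells and 6 higher and 4 lower in treated cells. The 22 processing and decay factors had 10 higher and 4 lower in untreated knockout cells (median 0.03) and 15 higher and 1 lower in treated ones (median 0.26), against 35.5% and 34.2%, and 38.4% and 37.4%, of all genes. On treatment in knockout cells, treated against untreated, 0 genes of the 4 lists passed (10 higher and 1 lower at an unadjusted p below 0.05, 2 and 0 with DESeq2).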

How the data were processed

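The authors deposited raw read counts per gene and library and a table of CPM (counts per 1000000 counts of the library), and CPM printed here were rescaled by TMM. The submitters' processing notes name BWA 0.5.9 and the mouse build mm9. Since gene IDs are of human genes, the sources used here leave the build, annotation, strand setting and counting tool unstated. Counts of all 12 libraries entered 1 fit in edgeR 4.0.16 under R 4.3.3 (TMM, filterByExpr, robust quasi-likelihood, common dispersion 0.0117), which tested 14676 genes, with Benjamini-Hochberg adjustment per comparison. SE was taken as |log2 fold change| over the root of F. The fit was tested on simulated data.

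Of the 245 members, 188 matched GENCODE v29 (GRCh38) by gene ID and 36 by symbol. Of the other 21, 16 were given a host from the RefSeq table of GRCh38.p14. Hosts, positions and sequences come from there, and the matching by symbol and RefSeq was added after the files were seen. Where several counted genes on the same strand held a member, the one whose counts were closest to the member was taken as host. Members and lists were chosen with earlier results of these data known. The rule for named members took, per comparison and direction, up to 6 called members with the smallest adjusted p, a mean of at least 1 CPM and no overlap between groups. To these it added textbook members, the most abundant of each class, their hosts, other members of those hosts and up to 3 genes each way per protein list, not all of which are printed. Members described beyond these were chosen after their values were seen. The lists were core C/D proteins, H/ACA proteins, assembly and Cajal body factors, processing and decay factors, other short structured RNAs and cell type markers. The H/ACA list held DKC1, NHP2, NOP10, GAR1, NAF1 and SHQ1. Of the marker lists for other cell types, 3 of 5 fibroblast, 1 of 3 endothelial, 2 of 4 melanocyte and 1 of 3 immune genes were counted. Alternatives were DESeq2 size factors, library size alone, no filter, a stricter filter, DESeq2 1.42.0, a fit of only the compared groups, a replicate block, equal rows kept once and each library left out.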

Additional observations from a re-analysis of the deposited data

Results flagged for a closer look

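The treatment response differed between genotypes, by the test of the difference itself, for the named members below, given as the log2 response in knockout minus that in wild type cells. It was positive for SNORD30 (1.43), SNORD29 (1.4), SNORD22 (1.24) and SNORD31 (1.24) in SNHG1, and for SNORD32A (1.46), SNORD35A (1.45) and SNORD33 (1.39) in RPL13A. It was also positive for SNORD118 (1.89), SNORA17 (2.74), SNORD11 (1.88), SNORD39 (0.93), SNORD12C (0.41) and the shared profile of SNORD50A and SNORD50B (0.47). It was negative for the shared profile of SCARNA17 and SCARNA18 (-1.38), for SCARNA2 (-1.26), SCARNA21 (-1.78) and SNORD84 (-0.72). The SNORD39 difference was lost in 4 of the alternatives, with a highest adjusted p of 0.108. Whether read sharing within a host has a part in these differences was not tested.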

How the results depend on the processing

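No called member changed direction in any alternative. There were 20 alternatives, or 19 for the difference of responses, which the compared groups alone do not give. A row dropped by the stricter filter, by keeping equal rows once or by another setting has no value there. Calls that held in every alternative that gave them a value were 19 of 40 on treatment in wild type cells, 0 of 9 in knockout cells, 68 of 90 (untreated) and 74 of 95 (treated) by genotype, and 34 of 50 in the difference of responses. Of those with a value in every alternative, 14 of 30, 0 of 7, 49 of 66, 51 of 63 and 24 of 34 held. As single libraries were left out, members called lower in treated wild type cells ranged from 16 to 32, and in treated knockout cells those called higher ranged from 0 to 18 and lower from 0 to 10. The 2 members called lower in treated knockout cells became 4 in the compared groups alone and 1 with the replicate block. All other counts of calls stayed within 1.5 times under the other alternatives, and library size alone gave 34 higher and 50 lower by genotype in untreated cells. Pairing by replicate number was not borne out by the data. Of 18 same-number pairs 1 had a correlation above 0.1 (range -0.175 to 0.121), and 0 libraries correlated best with their own number. With the replicate block, 8 members rose and 30 fell in treated wild type cells, 6 rose in treated knockout cells, and by genotype 24 were higher and 63 lower untreated and 57 higher and 40 lower treated. The difference of responses then called 40 positive and 10 negative. Depth limits the members counted apart, whose median total was 130 counts over 12 libraries, and 91 members had under 100 counts.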
